A study of Mus musculus with 9 samples.

Results

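Messenger RNA of 8 genes that carry signals between skin and sensory nerves was followed through 9 libraries of C57 mouse ear: artemin (Artn), semaphorin 3A (Sema3a), endothelin 1 (Edn1), its receptors Ednra and Ednrb, the endothelin-converting enzyme-like protease Ecel1, the protease-activated receptor PAR2 (F2rl1) and the histamine H1 receptor (Hrh1). The genes were taken by symbol from the 55401 features of the count table, each matched through its Ensembl identifier, and all 8 passed the expression filter that left 21925 genes for testing. The 3 MC903+paeonol libraries came from ears treated with MC903 in mice that also received 200 mg/kg of paeonol, a small phenolic molecule found in the bark of tree peony roots. The 3 MC903 libraries had MC903 alone; MC903 (calcipotriol) is an analogue of vitamin D that, painted on mouse skin, gives a dermatitis with itch used to model atopic disease. The 3 control libraries came from ears given absolute ethyl alcohol. The labels used here name no paeonol vehicle for the MC903 group, no group with paeonol alone, and neither the age and sex of the mice nor the dose and duration of MC903. Nor do they say that each library is a separate animal, and the p-values speak only for the spread between these samples, and that spread may be technical. The series title names TRPV3, NF-κB and CCL3 in keratinocytes, with skin inflammation and pruritus as the outcome.

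Itch starts when sensory fibres ending in the skin are excited by mediators from keratinocytes, mast cells, other immune cells and vessels. Artemin keeps such fibres alive and draws them toward the epidermis, whereas semaphorin 3A repels their growing tips. Endothelin 1 excites itch fibres mainly through its receptor ETA, histamine acts on them through the H1 receptor, and serine proteases cleave and thereby activate PAR2 on keratinocytes and other cells. The cell bodies of these neurons lie in ganglia outside the ear.

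Ecel1, nearly undetected in control ears, was per kilobase of exon the most abundant of the 8 in MC903 ears, and both endothelin receptors, Artn and Sema3a were also higher in MC903 ears than in control ears, while F2rl1 was lower. With paeonol, all 5 of the genes that MC903 raised were lower than with MC903 alone, Edn1 was lower too, and F2rl1 was higher. Both comparisons share the MC903 libraries. The share of all genes higher with MC903 that were lower with paeonol was not counted. Levels are in CPM, counts scaled to a common library size after TMM adjustment, with mean ± SD over n = 3 libraries. The 3 groups shared 1 edgeR quasi-likelihood fit. Called means a p under 0.05 after Benjamini-Hochberg adjustment over the 21925 genes, and changes are log2 with their standard error (SE), first group over second.

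In MC903 versus control, 5 of the 8 genes were called higher, 1 lower and 2 were not called, where 46.8% of all tested genes were called, 23.0% higher and 23.8% lower. Groups did not overlap in 6 of the 8, against 58.1% of all genes. In MC903+paeonol versus MC903, 1 was called higher, 6 lower and 1 was not called, where 29.7% of all genes were called, 15.3% higher and 14.3% lower. There 7 of the 8 had groups that did not overlap, against 43.9% of all genes. In MC903+paeonol versus control, 2 were called higher, 2 lower and 4 were not called, where 30.9% of all genes were called, 16.3% higher and 14.5% lower. Without control library 1, 1 of the 8 was called in that comparison. The groups of 5 genes did not overlap, against 46.4% of all genes. The median log2 change of the 8 was 0.63, -1.07 and -0.14 in these 3 comparisons in turn, against -0.0155, 0.0024 and -0.0347 over all genes. The comparisons share libraries (MC903 versus control shares its MC903 libraries with the paeonol comparison and its control libraries with MC903+paeonol versus control), so their values are set side by side and not correlated.

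**Figure D1:**
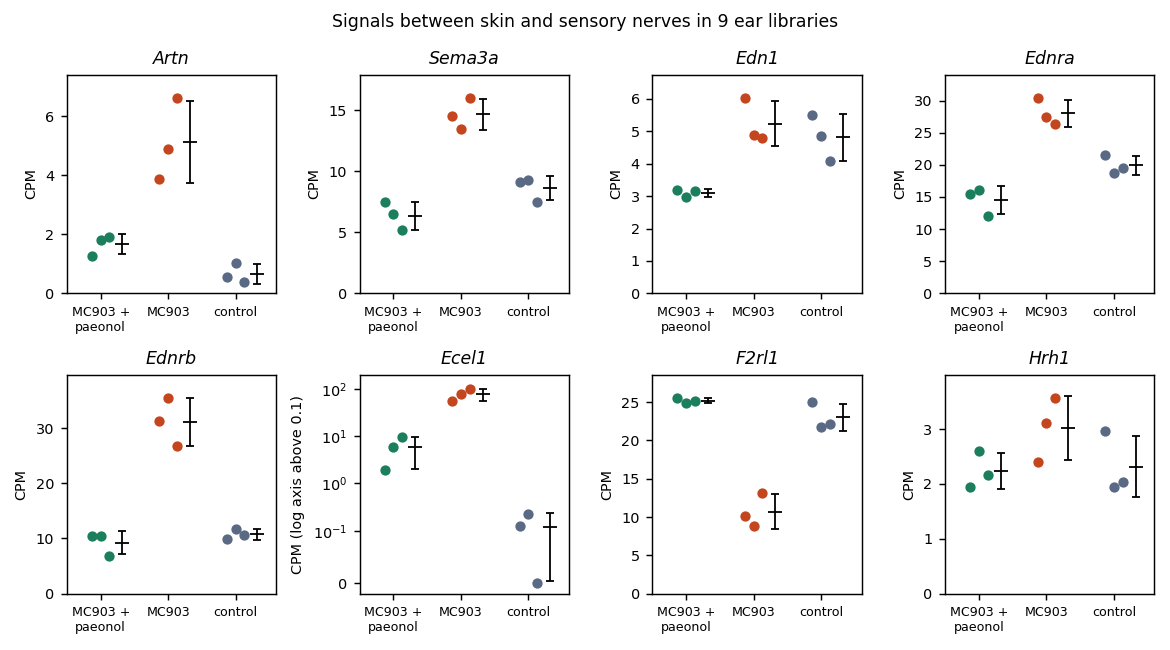
CPM of each gene in each library (points; replicates left to right), with mean ± SD beside each group of 3; the Ecel1 axis is logarithmic above 0.1. The MC903 points of Artn, Sema3a, Ednra, Ednrb and Ecel1 lie above all others, those of F2rl1 below all others, and those of Hrh1 among the rest.

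**Figure D2:**
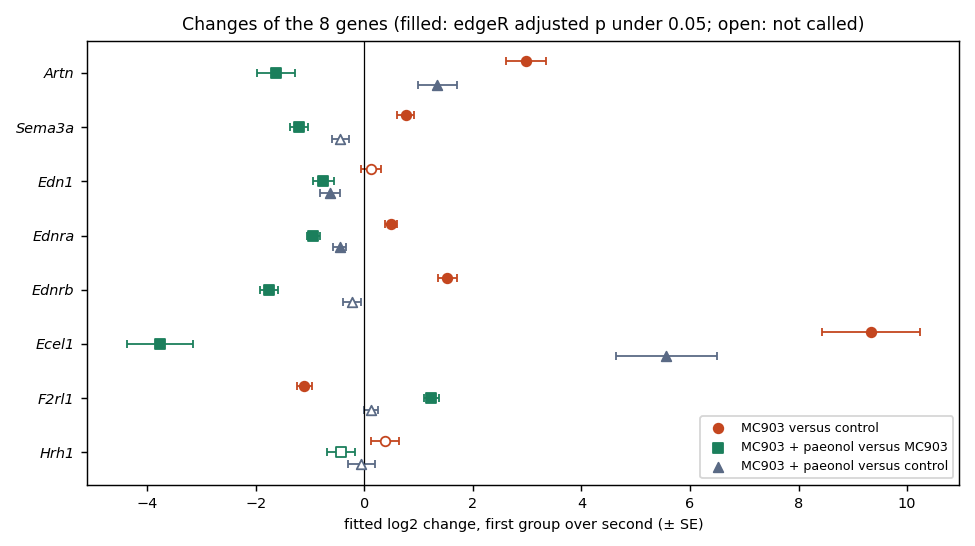
Fitted log2 change ± SE of the 8 genes in the 3 comparisons, filled where called by edgeR. In all but Hrh1 the square for MC903+paeonol versus MC903 is filled; the fitted values of Ecel1 against control depend on the prior count because control counts were 0 to 14.

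The libraries held 54.2646 to 57.7452 M estimated counts, and TMM factors ran from 0.942 to 1.09. Markers of several cell types differed between the groups. The summed CPM of 12 keratinocyte markers was 45200 to 49200 in MC903+paeonol, 27900 to 34200 in MC903 and 20500 to 23800 in control libraries. Much of these differences came from single keratins: Krt10 averaged 16100 CPM in MC903+paeonol and 2710 CPM in MC903 ears, and Krt14 averaged 13600 CPM in MC903 and 5530 CPM in control ears. The median log2 change of the 12 with MC903 was -0.014, or -0.205 with library totals in place of TMM. Macrophage markers summed to 560 to 917, 1870 to 2130 and 1050 to 1130 CPM in the same order of groups, and Schwann cell markers to 619 to 668, 514 to 526 and 1050 to 1210 CPM. Skeletal muscle markers summed to 2770 to 3570 CPM in MC903+paeonol, 2300 to 2910 CPM in MC903 and 5120 to 7750 CPM in control libraries. In such bulk tissue, fewer cells of a type and less RNA per cell cannot be told apart. With the mean log2 CPM of the muscle markers as a covariate, chosen after seeing the data, all tested genes called fell to 1111 in MC903 versus control, 4054 in MC903+paeonol versus MC903 and 338 in MC903+paeonol versus control. In that fit F2rl1 was the 1 gene of the 8 still called in MC903 versus control (edgeR adjusted p = 0.0258), and 5 of the 8 were called in MC903+paeonol versus MC903. The covariate ran from 6.60 to 7.08 in MC903 and from 8.26 to 8.93 in control libraries, so most of it moved with the treatment.

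**Figure D3:**
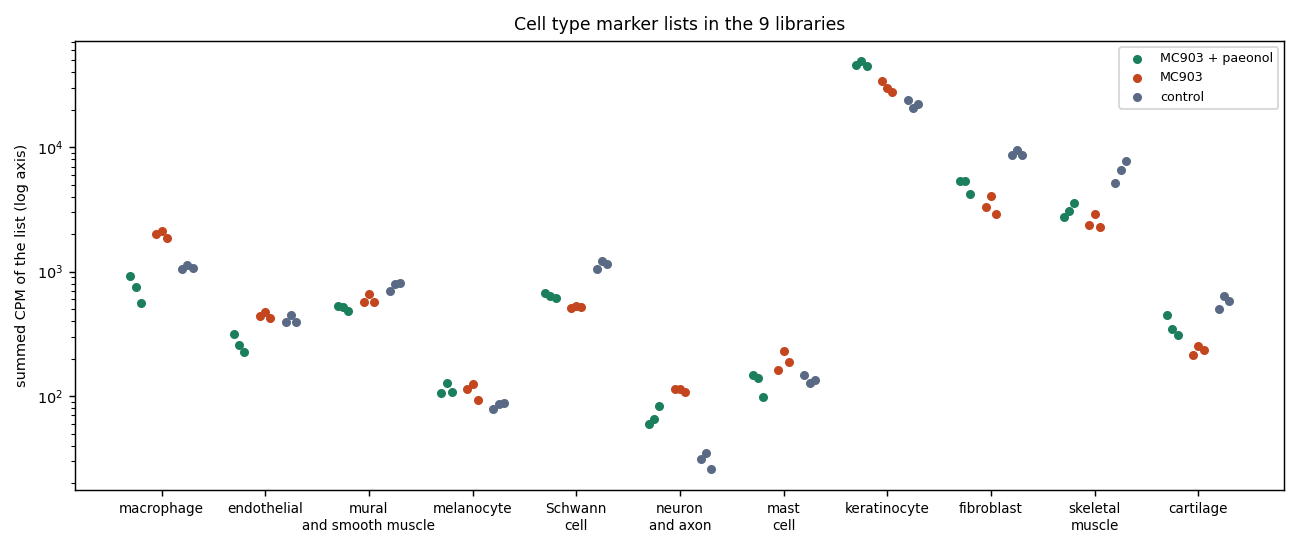
Summed CPM (log axis) of 11 marker lists in each library, with MC903+paeonol, MC903 and control from left to right within a list. Macrophage markers are highest in the MC903 libraries, keratinocyte markers in the MC903+paeonol libraries, and muscle, fibroblast, Schwann cell and cartilage markers in the control libraries.

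The stretches of genome just before the start sites of Artn, Edn1, Ednrb and Ecel1 are shown as examples of ligand, receptor and protease genes called lower with paeonol over MC903. Each runs 5′ to 3′ on the strand of its gene for 250 bases up to the RefSeq start site (GRCm38.p6): chr4:117929764-117930013 on the minus strand for Artn, chr13:42301226-42301475 on the plus strand for Edn1, chr14:103843702-103843951 on the minus strand for Ednrb and chr1:87156357-87156606 on the minus strand for Ecel1. Capitals mark matches to any motif searched. Ednra and Sema3a were also called lower with paeonol over MC903, and their stretches are not shown.
Artn: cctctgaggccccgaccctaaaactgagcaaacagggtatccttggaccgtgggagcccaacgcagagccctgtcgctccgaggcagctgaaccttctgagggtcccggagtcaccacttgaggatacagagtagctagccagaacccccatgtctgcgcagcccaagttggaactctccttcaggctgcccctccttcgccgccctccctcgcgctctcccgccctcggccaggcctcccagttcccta
Edn1: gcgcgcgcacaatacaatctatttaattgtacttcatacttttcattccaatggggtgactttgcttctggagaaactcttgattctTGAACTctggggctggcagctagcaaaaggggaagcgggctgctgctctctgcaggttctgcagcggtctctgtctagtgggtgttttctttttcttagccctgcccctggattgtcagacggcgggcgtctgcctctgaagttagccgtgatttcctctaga
Ednrb: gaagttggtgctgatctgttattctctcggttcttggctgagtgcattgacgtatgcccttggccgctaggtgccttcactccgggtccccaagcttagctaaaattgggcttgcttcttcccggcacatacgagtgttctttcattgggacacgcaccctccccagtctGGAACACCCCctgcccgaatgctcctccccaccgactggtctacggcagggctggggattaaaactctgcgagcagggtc
Ecel1: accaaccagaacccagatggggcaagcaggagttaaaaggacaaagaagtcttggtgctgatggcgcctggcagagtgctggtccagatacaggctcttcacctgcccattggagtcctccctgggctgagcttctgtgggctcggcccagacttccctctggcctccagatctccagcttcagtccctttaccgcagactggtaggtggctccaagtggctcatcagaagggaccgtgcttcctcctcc
Motifs were searched on both strands in windows from 250 bases before to 50 after each RefSeq start: AP-1 (TGANTCA, in 7.81% of all 32851 windows), the NF-κB consensus (8.46%), the hypoxia E-box (ACGTG, 19.6%) and the hexamers AGGTCA (16.3%) and AGTTCA (14.0%) bound by nuclear receptors such as the vitamin D receptor. The Ednrb window held an NF-κB match, on the opposite strand, whose first base lay 80 bases before the start. The Edn1 window held the hexamer AGTTCA, also on the opposite strand, 163 bases before its start. A match of the hypoxia E-box in the Edn1 window, again on the opposite strand, began at base 22 after the start and is not among the bases shown. The windows of Artn and Ecel1 held no match, nor did those of Ednra and Sema3a. Hrh1, which was called in no comparison, had 4 windows, which together held matches of NF-κB, AP-1 and both hexamers. Windows matched 7 of the 8 genes. The RefSeq start of Sema3a lay 271370 bases inside the gene from its GENCODE start, so its window says nothing of the bases before that start. The RefSeq start of Ednrb lay 701 bases, that of Ecel1 165 bases and that of Ednra 12 bases from the GENCODE gene start, those of Artn and Edn1 at it.

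Artn encodes artemin, a GDNF-family ligand that acts through the co-receptor GFRα3 and the kinase RET. The gene lies on chromosome 4, 117926162 to 117929763 (GRCm38, minus strand). It stood at 1.27, 1.81 and 1.90 CPM in the MC903+paeonol libraries, at 3.86, 4.90 and 6.61 CPM in the MC903 libraries and at 0.544, 1.02 and 0.389 CPM in the control libraries. Every MC903 library was above every other library, and the MC903+paeonol group lay between the others without overlap. Artn was 7.85-fold higher in MC903 than in control ears (log2 2.97 ± 0.37, edgeR adjusted p = 5.23e-05). It was 3.09-fold lower in MC903+paeonol than in MC903 ears (-1.63 ± 0.35, edgeR adjusted p = 0.00433), yet 2.54-fold higher than in control ears (edgeR adjusted p = 0.0147). That last call ended without control library 1 or control library 3 (edgeR adjusted p = 0.0531 and 0.0552). The muscle covariate gave an MC903 change of 2.98 ± 1.29 and a paeonol change of -1.63 ± 0.54, neither called (edgeR adjusted p = 0.224 and 0.063).

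Neither receptor of artemin was called in MC903 versus control. Gfra3, named here for that role after its values were seen, averaged 1.56 ± 0.189 CPM in MC903+paeonol, 1.53 ± 0.197 CPM in MC903 and 2.14 ± 0.548 CPM in control ears and was called in no comparison. Ret, also chosen after its values were seen, averaged 7.27 ± 1.33, 12.7 ± 1.35 and 10.2 ± 1.63 CPM in the same groups and was called lower in MC903+paeonol versus MC903 (log2 -0.80 ± 0.17, edgeR adjusted p = 0.00401). Of the 9 GDNF-family ligands and receptors, all tested, 4 were called higher and 2 lower with MC903 over control, and 1 higher and 4 lower with paeonol added to MC903. Their median log2 changes were 0.31 and -0.54. Neurturin (Nrtn), a sister ligand that signals through GFRα2, moved against Artn: 31.1 ± 4.14 CPM in MC903+paeonol, 8.31 ± 0.839 CPM in MC903 and 16.4 ± 3.51 CPM in control ears. It fell by 0.98 ± 0.16 (log2) with MC903 and was 1.90 ± 0.16 higher with paeonol (edgeR adjusted p = 0.000415 and 1.54e-05). In MC903+paeonol versus control Nrtn was called higher, as Artn was (0.92 ± 0.16, edgeR adjusted p = 0.00126). Gfra1, the co-receptor of GDNF, had 22.6, 24.5 and 17.7 CPM in MC903+paeonol, 58.2, 57.6 and 51.4 CPM in MC903 and 23.4, 25.7 and 18.9 CPM in control libraries. The MC903 libraries stood apart and the other groups overlapped. Its changes were 1.3 ± 0.14 with MC903 and -1.37 ± 0.14 with paeonol (edgeR adjusted p = 1.58e-05 and 3.68e-05).

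Receptors of the neurotrophins, another family of nerve survival factors, are given for 2 genes. Ntrk2, the BDNF receptor, was lower in MC903 than in control ears (log2 -0.97 ± 0.09, edgeR adjusted p = 5.39e-06) and not called in MC903+paeonol versus MC903 (37.2 against 37.3 CPM). Sort1, a sorting receptor for neurotrophins, averaged 97.9 CPM in MC903+paeonol, 39.9 CPM in MC903 and 71.3 CPM in control ears, and was 1.3 ± 0.09 higher (log2) with paeonol over MC903 (edgeR adjusted p = 6.36e-06).

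Neuron and axon markers could be read only in part, and whether their RNA in the ear follows sensory axon content was not tested. Of 13 neuron and axon markers 5 were tested, with Scn10a at 0 in all libraries and Elavl3, Elavl4, Scn9a, Snap25, Nefl, Nefm and Nefh below the filter. The list summed to 59.1 to 83.5 CPM in MC903+paeonol, 107 to 113 CPM in MC903 and 25.8 to 34.9 CPM in control libraries. In the MC903+paeonol and MC903 libraries most of that sum was Tubb3, a tubulin gene, with 50.9 ± 15.7 CPM in MC903+paeonol, 95.2 ± 3.46 CPM in MC903 and 2.31 ± 0.549 CPM in control ears. Tubb3 was the 1 marker of the list called higher in MC903 versus control and 3 were called lower, with a median log2 change of -0.94 over the 5. Those lower were Stmn2 (10.6 CPM in MC903 against 17.5 CPM in control ears), Uchl1 (2.68 against 5.16 CPM) and Gap43. Gap43, a growth-cone protein gene, was lower in MC903 than in control ears (1.84 ± 0.227 against 4.90 ± 1.08 CPM, log2 -1.41 ± 0.23, edgeR adjusted p = 0.000425). The part of axon content in the values of Artn and Sema3a was not tested.

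Sema3a, which encodes the secreted axon repellent semaphorin 3A, lies on chromosome 5, 13125414 to 13602565 (GRCm38, plus strand). It had 7.45, 6.47 and 5.16 CPM in MC903+paeonol libraries, 14.5, 13.5 and 16 CPM in MC903 libraries and 9.14, 9.28 and 7.52 CPM in control libraries. The MC903 libraries were the highest, and the MC903+paeonol libraries lay below the control libraries. Sema3a was 1.69-fold higher in MC903 than in control ears (log2 0.76 ± 0.16, edgeR adjusted p = 0.00193). It was 2.30-fold lower in MC903+paeonol than in MC903 ears (-1.20 ± 0.16, edgeR adjusted p = 0.000217). Against control the MC903+paeonol value was -0.44 ± 0.16 and not called (edgeR adjusted p = 0.0543), although DESeq2 did call it (0.0348). With the muscle covariate the sign of the MC903 change turned, to -0.28 ± 0.43, and the paeonol change was -0.90 ± 0.18 (edgeR adjusted p = 0.789 and 0.00633).

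Class 3 semaphorins and their receptors did not move as a block. Of the 14 genes, 5 were called higher and 4 lower in MC903 versus control, 2 higher and 5 lower in MC903+paeonol versus MC903, and 1 higher and 8 lower in MC903+paeonol versus control, with median log2 changes of 0.06, -0.19 and -0.42. The first of these medians was -0.13 with library totals in place of TMM. Sema3d, another secreted guidance cue, ran opposite to Sema3a in MC903 versus control and in MC903+paeonol versus MC903. Its CPM was 84.7, 63.0 and 60.5 in MC903+paeonol, 12.6, 16.1 and 14.8 in MC903 and 107, 83.6 and 96.7 in control libraries. All MC903 libraries were far below the others, and the other groups overlapped. Sema3d changed by -2.72 ± 0.15 with MC903 and by 2.26 ± 0.15 with paeonol (edgeR adjusted p = 8.53e-07 and 9.33e-06). In MC903+paeonol versus control Sema3d was called lower (-0.46 ± 0.14, edgeR adjusted p = 0.0323), the direction of Sema3a there. Nrp1, the neuropilin that binds semaphorin 3A, averaged 12.1 ± 1.74 CPM in MC903+paeonol, 20.7 ± 0.967 CPM in MC903 and 20.3 ± 2.76 CPM in control ears. It was lower with paeonol than with MC903 (log2 -0.78 ± 0.13) and than in control ears (-0.75 ± 0.13; edgeR adjusted p = 0.000966 and 0.00125). Nrp2, its paralogue, changed by 0.38 ± 0.06 (log2) with MC903 and by -0.64 ± 0.06 with paeonol over MC903 (edgeR adjusted p = 0.000261 and 2.23e-05).

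**Figure D4:**
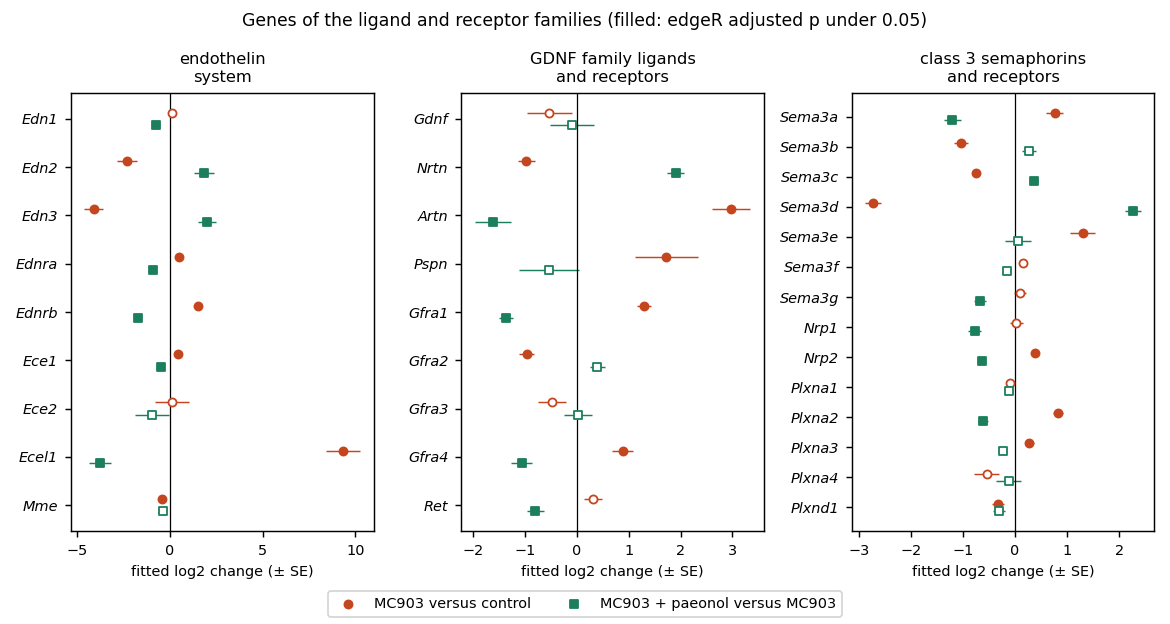
Fitted log2 change ± SE of each tested gene of 3 families in MC903 versus control and MC903+paeonol versus MC903, filled where called by edgeR. Nrtn and Sema3d lie on the opposite side of 0 from Artn and Sema3a in both comparisons.

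Edn1 encodes the precursor of endothelin 1, a vasoconstrictor peptide made by endothelium and keratinocytes (chromosome 13, 42301476 to 42307990, GRCm38, plus strand). It had 3.20, 2.97 and 3.16 CPM in MC903+paeonol libraries, 6.03, 4.88 and 4.81 CPM in MC903 libraries and 5.52, 4.87 and 4.07 CPM in control libraries. MC903 and control libraries overlapped, and the MC903+paeonol libraries lay below both. The MC903 change was 0.12 ± 0.18 (edgeR adjusted p = 0.631), and its sign turned with library totals in place of TMM. Edn1 was 1.68-fold lower in MC903+paeonol than in MC903 ears (log2 -0.75 ± 0.19, edgeR adjusted p = 0.00979) and 1.55-fold lower than in control ears (-0.63 ± 0.18, edgeR adjusted p = 0.0227). The call against control ended without control library 1, control library 2, MC903+paeonol library 2 or MC903+paeonol library 3 (edgeR adjusted p = 0.0881, 0.0574, 0.07 and 0.0539). Fitted with the muscle covariate, the paeonol change was -0.58 ± 0.26 (edgeR adjusted p = 0.159). The antisense gene Gm47118 overlaps an exon of Edn1 at up to 0.213 CPM in any library; the counting's use of strand is not stated in the sources used here, so reads of the pair cannot be told apart.

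Ednra encodes the endothelin receptor ETA, which in skin sits on vascular smooth muscle, fibroblasts and sensory fibres. It lies on chromosome 8, 77663031 to 77724464 (GRCm38, minus strand). Ednra had 15.5, 16.1 and 12.1 CPM in MC903+paeonol libraries, 30.4, 27.4 and 26.3 CPM in MC903 libraries and 21.5, 18.7 and 19.5 CPM in control libraries. None of the 3 groups overlapped, with MC903 highest and MC903+paeonol lowest. Ednra was 1.41-fold higher in MC903 than in control ears (log2 0.49 ± 0.12, edgeR adjusted p = 0.005), 1.92-fold lower in MC903+paeonol than in MC903 ears (-0.94 ± 0.12, edgeR adjusted p = 0.000167) and 1.37-fold lower in MC903+paeonol than in control ears (-0.45 ± 0.12, edgeR adjusted p = 0.0141). The MC903 call ended with library totals in place of TMM (0.30, edgeR adjusted p = 0.0656), and with the muscle covariate that change was 0.00 ± 0.34 (edgeR adjusted p = 1.00). The call of MC903+paeonol against control ended without control library 1 (edgeR adjusted p = 0.0546). A transcript on the other strand, 4933431K23Rik, overlaps an exon of Ednra and had 0.221 to 0.518 CPM in MC903+paeonol, 1.42 to 2.19 CPM in MC903 and 0.406 to 0.705 CPM in control libraries.

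Ednrb encodes the endothelin receptor ETB, found on endothelium, melanocytes, glia and some myeloid cells. It lies on chromosome 14, 103814625 to 103844402 (GRCm38, minus strand). Ednrb had 10.4, 10.5 and 6.84 CPM in MC903+paeonol libraries, 31.3, 35.4 and 26.7 CPM in MC903 libraries and 9.83, 11.8 and 10.6 CPM in control libraries. Every MC903 library was above all others, and MC903+paeonol and control libraries overlapped. Ednrb was 2.89-fold higher in MC903 than in control ears (log2 1.53 ± 0.17, edgeR adjusted p = 2.12e-05) and 3.37-fold lower in MC903+paeonol than in MC903 ears (-1.75 ± 0.17, edgeR adjusted p = 3.12e-05). Between MC903+paeonol and control it was not called (-0.22 ± 0.17, edgeR adjusted p = 0.36). With the muscle covariate the MC903 change was 1.57 ± 0.59 and no longer called (edgeR adjusted p = 0.16), and the paeonol change was -1.77 ± 0.23 (edgeR adjusted p = 0.000838).

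Markers of the cells that could carry these receptors moved as follows. All 11 macrophage markers were called higher in MC903 versus control and all 11 lower in MC903+paeonol versus MC903; Mrc1, the mannose receptor gene, averaged 105 ± 23.7 CPM in MC903+paeonol, 323 ± 15.0 CPM in MC903 and 117 ± 6.74 CPM in control ears. Of the 11, Adgre1, Csf1r and Lyz2 lost the MC903 call with library totals. Of 12 endothelial markers, 2 were higher and 3 lower in MC903 versus control, 10 lower in MC903+paeonol versus MC903 and 11 lower in MC903+paeonol versus control, with sums of 228 to 315, 428 to 477 and 393 to 451 CPM in MC903+paeonol, MC903 and control libraries. Melanocyte markers summed to 106 to 128, 93.4 to 126 and 78.5 to 88.3 CPM in the same groups, and 1 of 9 was called lower in MC903+paeonol versus MC903. Mural and smooth muscle markers summed to 479 to 527, 569 to 667 and 702 to 817 CPM. The median log2 changes of the endothelial markers were 0.135 in MC903 versus control, -0.778 in MC903+paeonol versus MC903 and -0.634 in MC903+paeonol versus control. Those of Edn1, which endothelium also makes, were 0.12, -0.75 and -0.63. The part of macrophages, vessels and melanocytes in the values of Edn1 and of the endothelin receptors was not tested.

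Ecel1 encodes a membrane metallopeptidase of the neprilysin and endothelin-converting enzyme family, known in mice for its induction in injured neurons and its need in motor nerve branching. It lies on chromosome 1, 87147655 to 87156521 (GRCm38, minus strand). Its estimated counts were 111, 318 and 500 in MC903+paeonol libraries, 2873, 4308 and 5538 in MC903 libraries and 8, 14 and 0 in control libraries. In CPM these are 1.96, 5.87 and 9.59 in MC903+paeonol, 56.2, 79.6 and 101 in MC903 and 0.128, 0.230 and 0 in control libraries. The 3 groups were far apart, and the spread within MC903+paeonol was wide, 5.80 ± 3.81 CPM. The ratio of MC903 to control was 604 (95% counting interval 277 to 1650; edgeR adjusted p = 0.000173). Paeonol with MC903 gave 13.6-fold less Ecel1 than MC903 alone (log2 -3.77 ± 0.61, edgeR adjusted p = 0.00391), with -4.34 to -3.35 when any 1 library was left out. The ratio of MC903+paeonol to control was still 43.3 (19.6 to 119; edgeR adjusted p = 0.00466). Leaving out any 1 library, the fitted log2 changes against control, which depend on the prior count, ran from 8.77 to 10.18 for MC903 and from 4.99 to 6.41 for MC903+paeonol. The highest values, without control library 2, stand beside 9.33 and 5.56 with all libraries, and every one of these changes was called. With the muscle covariate neither change against control was called (edgeR adjusted p = 0.0606 and 0.131), and the paeonol change was -4.62 ± 1.02 (edgeR adjusted p = 0.0296).

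Within both treated groups the libraries ranked alike for Ecel1 and for Tslp, the keratinocyte cytokine that MC903 is known to induce and that itself excites itch fibres. Tslp had 254, 318 and 516 CPM in MC903+paeonol, 740, 907 and 1470 CPM in MC903 and 6.98, 6.35 and 5.78 CPM in control libraries. Library 3 was highest and library 1 lowest in both treated groups for both genes. Artn and Il33, an epithelial alarmin gene, had the same order there. Other keratinocyte genes did not: in MC903 libraries 1, 2 and 3 Trpv3 had 183, 163 and 191 CPM and Klk5 35.9, 27.9 and 22.8 CPM. The share of all genes with this order was not counted, and the control libraries did not rank alike for Ecel1 and Tslp. Of the neuron markers, 8 were left out by the filter as given above. The keratinocyte markers, most of all Krt10, summed higher in MC903+paeonol than in MC903 libraries, where Ecel1 was highest. Of the 12 markers 7 were called higher and 2 lower in MC903+paeonol versus MC903. The 2 lower were Krt14 and Dsg3, both also called higher in MC903 versus control, as Ecel1 was. The cell source of Ecel1 was not tested.

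Across the endothelin system 9 of 10 genes were tested, with Kel, an endothelin-cleaving blood group protease gene, at 0 in all libraries. With MC903 over control 4 were called higher and 3 lower, with paeonol over MC903 2 higher and 5 lower, and with paeonol over control 1 higher and 4 lower; the median log2 changes were 0.12, -0.75 and -0.52, the first turning to -0.07 with library totals. Ece1, the enzyme that cuts big endothelin to its active form, had 80.5, 92.8 and 92.7 CPM in MC903+paeonol, 131, 120 and 123 CPM in MC903 and 92.3, 91.5 and 91.8 CPM in control libraries. The MC903 libraries stood above the rest, and the other groups overlapped. Ece1 was 0.44 ± 0.07 higher (log2) with MC903 and changed by -0.49 ± 0.07 with paeonol (edgeR adjusted p = 0.000226 and 0.000261). Edn3, the endothelin that guides melanocyte precursors and binds ETB, went the other way, with 0.371, 0.830 and 0.920 CPM in MC903+paeonol, 0.137, 0.314 and 0.0726 CPM in MC903 and 2.67, 3.31 and 3.18 CPM in control libraries. Edn3 was 17.4-fold lower in MC903 than in control ears (95% counting interval 8.24 to 44.2) and 3.93-fold higher in MC903+paeonol than in MC903 ears (1.68 to 10.7; edgeR adjusted p = 5.01e-05 and 0.0107). Edn2, chosen after its values were seen, averaged 1.26 ± 0.364, 0.354 ± 0.303 and 1.80 ± 0.461 CPM in MC903+paeonol, MC903 and control ears and was called lower with MC903 and higher with paeonol over MC903. Mme, neprilysin, which degrades endothelins and substance P, was lower in MC903+paeonol than in control ears (6.82 against 12.4 CPM, log2 -0.86 ± 0.17, edgeR adjusted p = 0.00263).

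F2rl1 encodes PAR2, the receptor that tryptase and some kallikreins switch on by cleavage, and was the 1 gene of the 8 to fall with MC903. It lies on chromosome 13, 95511732 to 95525227 (GRCm38, minus strand). F2rl1 had 25.5, 24.9 and 25.1 CPM in MC903+paeonol libraries, 10.1, 8.78 and 13.2 CPM in MC903 libraries and 25, 21.8 and 22.2 CPM in control libraries. All MC903 libraries were below all others, and the other groups overlapped. F2rl1 was 2.15-fold lower in MC903 than in control ears (log2 -1.11 ± 0.14, edgeR adjusted p = 4.7e-05) and 2.35-fold higher in MC903+paeonol than in MC903 ears (1.23 ± 0.14, edgeR adjusted p = 6.57e-05). Between MC903+paeonol and control it was not called (0.13 ± 0.13, edgeR adjusted p = 0.515), and this value turned sign with library totals in place of TMM. Both calls held in the fit with the muscle covariate, at -1.86 ± 0.39 and 1.47 ± 0.17. Of the 12 keratinocyte markers 5 were called higher and 3 lower in MC903 versus control (3 and 6 with library totals in place of TMM), and 7 higher and 2 lower in MC903+paeonol versus MC903. The 5 higher with MC903, against F2rl1, were Krt14, Krt1, Dsg3, Itga6 and Perp. The 3 lower with MC903, as F2rl1 was, were Krt5 (log2 -0.20 ± 0.06), Col17a1 and Krt15, and all 3 were called higher with paeonol over MC903. Unlike F2rl1, all 3 were also called in MC903+paeonol versus control, Krt5 higher and Col17a1 and Krt15 lower. Krt15, a marker of basal and hair follicle keratinocytes, averaged 708 ± 113 CPM in MC903+paeonol, 291 ± 14.0 CPM in MC903 and 1750 ± 264 CPM in control ears.

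The proteases listed beside the protease-activated receptors moved in different directions, and which of them cleave PAR2 was not tested. Of 15 protease-activated receptors, proteases and inhibitors, all tested, 7 were called higher and 2 lower in MC903 versus control, 5 higher and 4 lower in MC903+paeonol versus MC903, and 7 higher and 1 lower in MC903+paeonol versus control, with median log2 changes of 1.04, 0.13 and 0.71. Klk8, a keratinocyte kallikrein, had 98.3, 103 and 120 CPM in MC903+paeonol, 193, 210 and 208 CPM in MC903 and 35.2, 30.0 and 27.9 CPM in control libraries. Its groups did not overlap, and its changes were 2.71 ± 0.10 with MC903, -0.93 ± 0.10 with paeonol over MC903 and 1.78 ± 0.10 with paeonol over control (edgeR adjusted p = 6.63e-08, 4.2e-05 and 4.41e-06). The mast cell tryptase genes Tpsab1 and Tpsb2 rose by 2.28 ± 0.34 and 1.17 ± 0.19 with MC903 and were lower with paeonol, at -1.85 ± 0.33 and -1.36 ± 0.19 (edgeR adjusted p = 0.000184, 0.000356, 0.00147 and 0.000325). Other proteases, chosen after their values were seen, were called higher with paeonol over MC903, as F2rl1 was: Klk5, another keratinocyte kallikrein, by 1.69, and the membrane proteases Prss8 and St14 by 0.62 and 0.36 on the log2 scale (edgeR adjusted p = 0.000786, 0.0151 and 0.00408). With MC903 over control Klk5 was at -0.56 and not called (edgeR adjusted p = 0.0675). Spink5, which encodes the kallikrein inhibitor LEKTI, averaged 614 CPM in MC903+paeonol, 440 CPM in MC903 and 213 CPM in control ears and was called higher in all 3 comparisons. These 2 tryptase genes also stand in the mast cell list, so they are no separate reading of it.

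Hrh1, the histamine H1 receptor gene, is the 1 gene of the 8 with no call in any comparison. It lies on chromosome 6, 114397936 to 114483296 (GRCm38, plus strand). Hrh1 had 1.94, 2.6 and 2.17 CPM in MC903+paeonol libraries, 2.39, 3.11 and 3.56 CPM in MC903 libraries and 2.96, 1.95 and 2.04 CPM in control libraries. All 3 groups overlapped. The log2 changes were 0.38 ± 0.25 with MC903, -0.43 ± 0.25 with paeonol over MC903 and -0.05 ± 0.25 with paeonol over control (edgeR adjusted p = 0.248, 0.237 and 0.906).

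Hdc encodes the enzyme that makes histamine from histidine. It had 6.73, 5.98 and 5.89 CPM in MC903+paeonol, 36.7, 43.5 and 50.2 CPM in MC903 and 6.11, 5.71 and 4.90 CPM in control libraries. The MC903 libraries stood far above the others, which overlapped. Hdc was 2.96 ± 0.14 higher (log2) in MC903 than in control ears, and -2.81 ± 0.14 in MC903+paeonol versus MC903 (edgeR adjusted p = 1.74e-07 and 7.52e-07). Hnmt, the enzyme that inactivates histamine in cells, averaged 4.68 CPM in MC903+paeonol, 3.31 CPM in MC903 and 8.71 CPM in control ears, lower with MC903 (-1.40 ± 0.19, edgeR adjusted p = 0.000119). Of 9 genes of histamine synthesis, breakdown and reception 7 were tested (not Aoc1 and Hrh3), and 1 was called higher and 2 lower with MC903, 0 higher and 1 lower with paeonol over MC903, and 0 higher and 2 lower with paeonol over control. The median log2 changes were 0.18, -0.43 and -0.40, the first turning to -0.01 with library totals. Beside this, 4 of 10 mast cell markers were called higher and 2 lower with MC903, among the latter Ms4a2, a subunit of the IgE receptor chosen after its values were seen, at 1.88 ± 1.28 CPM in MC903 and 5.45 ± 0.500 CPM in control ears. The mast cell list summed to 97.5 to 149 CPM in MC903+paeonol, 163 to 230 CPM in MC903 and 128 to 148 CPM in control libraries; its part in Hdc was not tested.

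Of 27 other itch mediators and receptors 22 were tested, with Il31 and Trpa1 at 0 in every library. With MC903 over control 11 were called higher and 2 lower, with paeonol over MC903 1 higher and 14 lower, and with paeonol over control 4 higher and 5 lower; the median log2 changes were 0.88, -0.75 and 0.11, the last turning to -0.05 with library totals. Trpv3, the warmth-sensing keratinocyte channel in the series title, averaged 84.9 ± 15.6 CPM in MC903+paeonol, 179 ± 14.3 CPM in MC903 and 52.5 ± 4.89 CPM in control ears. Postn, periostin, a matrix protein that excites itch fibres in mice, was the 1 gene of this list called higher with paeonol over MC903, with 778 ± 82.0 CPM in MC903+paeonol, 204 ± 33.3 CPM in MC903 and 1140 ± 80.9 CPM in control ears. Its log2 changes were -2.48 ± 0.12 with MC903 and 1.93 ± 0.12 with paeonol (edgeR adjusted p = 3.19e-07 and 3.66e-06). Fibroblast markers summed to 4220 to 5350, 2900 to 4040 and 8700 to 9470 CPM in MC903+paeonol, MC903 and control libraries, and collagen genes made up most of these sums. Of the 10 markers 2 were called higher and 7 lower in MC903 versus control, and 4 higher and 2 lower in MC903+paeonol versus MC903. The 7 lower with MC903 went the way of Postn there. The 2 higher, Pdgfra and Fbln1, ran opposite to Postn in both comparisons, at 0.48 and 1.03 with MC903 and -0.86 and -0.82 with paeonol over MC903 (log2). Pdgfra lost its MC903 call with library totals in place of TMM (0.29, edgeR adjusted p = 0.13). The part of fibroblasts in the Postn values was not tested.

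Per kilobase of exon, the order of the 8 genes differed between groups. In MC903+paeonol ears F2rl1 was highest at 9.18 ± 0.107 CPM per kb, followed by Ednra (2.66 ± 0.398), Ednrb (2.16 ± 0.483), Ecel1 (1.66 ± 1.09), Edn1 (1.45 ± 0.0574), Artn (0.690 ± 0.141), Hrh1 (0.503 ± 0.0752) and Sema3a (0.459 ± 0.0831). In MC903 ears the order was Ecel1 (22.5 ± 6.33 CPM per kb), Ednrb (7.30 ± 1.03), Ednra (5.11 ± 0.386), F2rl1 (3.90 ± 0.827), Edn1 (2.45 ± 0.320), Artn (2.13 ± 0.578), Sema3a (1.06 ± 0.0906) and Hrh1 (0.678 ± 0.133). In control ears F2rl1 led at 8.39 ± 0.623 CPM per kb, then Ednra (3.64 ± 0.255), Ednrb (2.52 ± 0.238), Edn1 (2.25 ± 0.339), Sema3a (0.624 ± 0.0706), Hrh1 (0.521 ± 0.125), Artn (0.270 ± 0.136) and Ecel1 (0.0341 ± 0.0329). Neighbours whose means lay closer than the sum of their SDs were Ednra and Ednrb, Ednrb and Ecel1, Ecel1 and Edn1, Artn and Hrh1, and Hrh1 and Sema3a in MC903+paeonol ears. In MC903 ears they were Ednra and F2rl1, and Edn1 and Artn; in control ears they were Ednrb and Edn1, Sema3a and Hrh1, and Hrh1 and Artn. F2rl1 headed the MC903+paeonol and the control ears and stood below the protease and both endothelin receptors in MC903 ears.

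The genes whose log2 CPM ran closest to each of the 8 were sought among 12348 genes over the 9 libraries, which share their group means and depth. Artn ran closest to Id3 (Pearson r = 0.994), Nop16 (0.989) and Rac1 (0.988), and Sema3a to Itgb2 (0.988), Aldh3b1 (0.985) and Tspan4 (0.983). Ednra ran closest to Sulf2 (0.985), Bmp1 (0.981) and the macrophage marker Cd68 (0.979), and Ednrb to Slc43a3 (0.992), Cpxm1 (0.992) and the macrophage marker Mrc1 (0.991). Ecel1 had Itpk1, Ankrd49 and Ppia at 0.995 each, whose own changes with MC903 were far smaller, log2 1.33, 0.97 and 0.76. F2rl1 had Wnt7b (0.992), Clca2 (0.987) and Bbox1 (0.986), all lower in MC903 than in control ears and higher in MC903+paeonol than in MC903 ears. Edn1 had Tomm34 (0.964), Pappa (0.961) and Luc7l2 (0.953), and Hrh1, with the weakest likeness, Adat1 (0.918), Ccdc163 (0.907) and Enoph1 (0.902).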

How the data were processed

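Ear messenger RNA of 9 libraries, 3 in each of 3 groups, was analysed from the table that the authors deposited, with whole numbers per gene that were read as estimated counts without scaling between libraries. Per the labels' protocols, RNA was extracted with Trizol, selected with oligo(dT), and dUTP marked the second strand. The submitters' processing notes name GRCm38, HISAT2 2.0.4, StringTie 1.3.4d and cutadapt. Their roles, the annotation, the strand setting and the origin of the whole numbers are not stated in the sources used here. Among low counts multiples of 4 are in excess, 4 itself being 1.90 to 2.23 times as frequent as its neighbours. The floor was therefore 12 counts per library (0.192 to 0.235 CPM), and where a group averaged 12 counts or fewer a ratio with its exact Poisson interval (95%), from counts divided by 4, replaces the fitted fold; such intervals cover counting error only.

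Groups came from the treatment label and replicate numbers from the title. The table has 55401 features: GENCODE M21 gave symbols for 55141, counts above 0 were found for 33888, and 21925 passed filterByExpr (minimum count 10, minimum total 15); 0.0398% of counts lay outside them. The 9 libraries, of 54.2646 to 57.7452 M estimated counts, were fitted together in edgeR 4.0.16 (R 4.3.3) with TMM scaling and robust quasi-likelihood F tests, two-sided, 1 coefficient per group, called under 0.05 after Benjamini-Hochberg adjustment whatever the fold. For biological variation between replicates edgeR estimated 0.214 as the coefficient shared by all genes. The calling was also run on simulated data. No result of that run is given here, so it does not vouch for the calls in these libraries. On counts divided by 4, the chi-square between replicates was 6.54 to 14.5 times its degrees of freedom, so replicates differed by more than counting error. Separate preparations of the same RNA can differ in this way too, so the values cannot show that the replicates were separate animals. Each SE was derived from the log2 change and the F statistic.

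The 8 genes and all lists were chosen with earlier results of these data known. Named beyond the 8 were, per pathway list and comparison, up to 2 called genes with the smallest p, per marker list up to 2, and the 3 genes most like each of the 8 among genes with a mean log2 CPM (prior count 2) of at least 2; other names are marked as chosen after their values were seen, except Il33 and markers named as not tested, for their scaling or for their part in a list and genes named in a figure. A gene that the rule takes is not reported here. Motifs were matched in RefSeq promoter windows. Alternatives were DESeq2 1.42.0, edgeR with the size factors of DESeq2, library totals without TMM, no filter, a mean CPM of at least 1, fits of 2 groups, the replicate number as a block, counts divided by 4 and each library left out. The skeletal muscle covariate was added after seeing the data.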

Additional observations from a re-analysis of the deposited data

How the results depend on the processing

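Over the 8 genes, 135 of 144 recomputed changes kept their direction and side of the threshold in MC903 versus control, 142 of 144 in MC903+paeonol versus MC903 and 123 of 144 in MC903+paeonol versus control. All tested genes called numbered 9012 to 10376, 5065 to 6328 and 5216 to 6710 in these comparisons when 1 library was left out, and 9694 to 10809, 5990 to 7287 and 6306 to 7529 under the other settings, leaving aside the muscle covariate. Those other settings tested 16547 to 33888 genes. The share of tested genes called ran from 29% to 58.6%, 17.9% to 39.3% and 18.6% to 41.9% under them. Of the 8, the number called was 6 and 7 in the first and second comparison whichever library was left out, and 1 to 5 in the third, with 1 called without control library 1.

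Scaling by library totals moved the median change of all genes to -0.205 in MC903 versus control and to -0.197 in MC903+paeonol versus control, and the higher share of calls to 32% (49.2% with TMM) and 28.7% (52.9% with TMM). There the MC903 change was -0.072 for Edn1 and 0.30 for Ednra, so 5 of the 8 were called, and the change of MC903+paeonol over control was -0.033 for F2rl1 and -0.60 for Sema3a (edgeR adjusted p = 0.0166). Sema3a was also called in that comparison with DESeq2 (adjusted p = 0.0348), with the mean CPM filter (0.0474), with counts divided by 4 (0.048), without control library 3 (0.046) and without MC903+paeonol library 1 (0.0282). The change of Hrh1 in that comparison ran from -0.18 to 0.16 over left-out libraries, positive (0.16 and 0.06) without control library 1 or MC903+paeonol library 1.

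With the muscle covariate 1111, 4054 and 338 genes were called in the 3 comparisons, of the 8 genes 1, 5 and 0; at an unadjusted p under 0.05 these were 4, 7 and 4 of the 8. The MC903 change then turned sign for Edn1 (-0.46), Ednra (-0.00031), Hrh1 (-0.34) and Sema3a (-0.28), and that of MC903+paeonol over control for F2rl1 (-0.39). The SE of Artn in MC903 versus control grew to 1.29, from a fit in which covariate and treatment moved together; the cause of the lost calls was not tested.

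Replicate numbers did not pair the libraries: deviations of same-numbered libraries correlated at -0.0113 to 0.04, and 3 of 9 libraries correlated best with their own number. With the replicate block 10104, 6348 and 6673 genes were called, and of the 8 genes 6, 7 and 4, with no call among them changed. Genes at a few counts, such as Edn3 with MC903 or Ecel1 in control ears, are limited by depth.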
